A study of Homo sapiens with 6 samples.

Results

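The genes described here are 45 genes of mitosis, read in a human lung cancer line with and without CRISPR targeting of the gene for the RNA-binding protein IGF2BP3. They were taken from a fixed list of gene symbols, and all 45 were found, each in 1 row, among the 35784 gene rows of the deposited table. The list was not chosen on the values, but results of these data were known when it was drawn up. NCI-H1299 is an established lung cancer line known to lack p53, labelled as LUAD (lung adenocarcinoma) cells. The control group (3 libraries, genotype control, KO-NC in the titles) had received a lentivirus, per the sample names, whose insert the labels do not give, and the knockout group (3 libraries, genotype IGF2BP3 knockout, KO-IGF2BP3 in the titles) had been cut with a pair of guide RNAs delivered in LentiCrisprv2. Infected cells were selected with puromycin, and expanded as single-cell colonies, and both groups share the parental line. The labels name neither the colony behind a library nor separate cultures. Differences between colonies and the targeting of IGF2BP3 therefore cannot be told apart, and the p-values rest on a spread among libraries that may be technical.

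Mitosis is driven by cyclin B with the kinase CDK1, which the phosphatases of the CDC25 family switch on. Kinesin motors and microtubule-binding proteins build the spindle, the kinetochore ties chromosomes to it, and the spindle checkpoint holds back the anaphase-promoting complex, a ubiquitin ligase, until every chromosome is attached. That ligase then destroys securin and cyclin B, the protease separase cuts cohesin, and the cell divides. Most genes of this program are transcribed in G2 phase under the factors MYBL2 and FOXM1 with the MuvB complex, which binds the cell cycle genes homology region (CHR) in their promoters. In quiescent cells the same site is held by the repressive DREAM complex.

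Totals ran from 67674223 to 80810319 counts per library, and the lowest count of any of the 45 genes in any library was 760, so none was near the limit of detection. Levels are in CPM, read counts divided by a library total that was adjusted by the trimmed mean of M values (TMM), given for replicates 1, 2 and 3 in that order. The quasi-likelihood test of edgeR was run on 20134 genes, p-values were adjusted over all of them by Benjamini-Hochberg, and a gene is said to have risen or fallen at an adjusted p under 0.05. IGF2BP3 itself was at 58.8, 51.6 and 54.1 CPM in the controls and 39.9, 25 and 22.6 CPM in the knockout libraries (log2 fold change -0.91, SE 0.20, adjusted p = 0.017), with the highest of the knockout values in replicate 1. The message was thus lower but present in the libraries labelled knockout, and protein was not measured in these data. Its call was lost without control replicate 1, 2 or 3 (adjusted p = 0.067, 0.05 and 0.056) and without knockout replicate 2 (0.065). In each group 1 library stood apart from the other two. Knockout replicate 1 differed from replicates 2 and 3 by a chi-square per degree of freedom of 97.5 and 107, against 14.7 between those, and control replicate 3 differed from replicates 1 and 2 by 45.5 and 44.9, against 12.1 between those. Of the epithelial markers read, the keratins KRT8, KRT18 and KRT7 were abundant, at means of 651, 939 and 431 FPKM in the controls (fragments per kilobase scaled to library size). Their means in the knockout were 338, 538 and 371 FPKM. KRT19 went from a mean of 25.9 to 0.262 FPKM and CDH1 from 24.8 to 8.8 FPKM, while EPCAM was low in both groups (1.85 and 1.47 FPKM). The lung adenocarcinoma lineage markers NKX2-1, NAPSA, SFTPB and SFTPC stayed at or below 0.569 FPKM in every library. Markers of other cell types were near 0, with PTPRC of leukocytes at or below 0.0177, CDH5 of endothelium at or below 0.0627 and COL1A1 of fibroblasts at or below 1.13 FPKM, apart from CD68 with up to 10.8 FPKM.

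The promoters of these genes show a feature that the list did not use. RefSeq promoter windows of 300 bases (GRCh38.p14, 250 bases before to 50 after the gene start) were at hand for 39 of the 45 genes. They were searched on both strands for the CHR element (TTTGAA or TTCGAA), the CCAAT box bound by NF-Y (CCAAT) and an E2F-type site (GCGGGAA). A CHR match was present in 29 of the 39 (74.4%), against 16.4% of 35116 promoters in the same table. A CCAAT match was also present in 29 of the 39 (74.4%), against 34.6% of all promoters, and 24 (61.5%) held both, against 6.38%. The E2F-type letters were in 4 of the 39 (10.3%), close to the 6.55% of all promoters. Promoters of 111 other mitosis genes lay between the 39 and all promoters for CHR (44.1%) and CCAAT (53.2%). The E2F-type letters were in 23.4% of them, a larger share than in the 39 or in all promoters. Promoters of 35 genes of G1 to S held a CHR match in 5.71% and the E2F-type letters in 51.4%, while CCAAT was frequent there too, at 60%. Counting the gene start as 0, 20 of the 39 CHR matches began between -50 and -1, and 34 of the 63 CCAAT matches began farther up, between -100 and -51. Of the CHR matches 2 shared a base with a CCAAT match. A match is a run of letters and not a measured binding site.

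Stretches upstream of the RefSeq start of 6 genes are shown. They are CCNB1, CDK1 and further named genes that were picked for a CHR match upstream of the start. In the deposited gene annotation CCNB1 starts at 69167135 and BUB1B at 40161023, inside their stretches. KIF23 starts there at 69414246, so its whole stretch lies inside the annotated gene. For CDK1, ESPL1 and KIF18A the stretch ends right before the annotated gene. CHR and CCAAT matches on either strand are in capitals, and the sequences run 5′ to 3′ on the strand of the gene. CCNB1 (chr5:69166950-69167149, plus strand) has 2 CCAAT boxes and no CHR match in its window, and CDK1 (chr10:60778131-60778330, plus strand) has a CHR match next to a CCAAT box far from the start. The stretches of ESPL1 (chr12:53268199-53268298, plus strand), BUB1B (chr15:40160969-40161068, plus strand) and KIF23 (chr15:69414249-69414348, plus strand) belong to genes that rose. KIF18A (chr11:28108157-28108256, minus strand) has both elements and is one of the few genes of the list that were lower in the knockout, without passing the test.
CCNB1: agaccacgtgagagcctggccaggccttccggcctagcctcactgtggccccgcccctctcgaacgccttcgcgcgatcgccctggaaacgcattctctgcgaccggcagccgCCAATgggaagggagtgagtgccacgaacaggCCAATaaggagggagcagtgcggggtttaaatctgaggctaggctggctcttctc
CDK1: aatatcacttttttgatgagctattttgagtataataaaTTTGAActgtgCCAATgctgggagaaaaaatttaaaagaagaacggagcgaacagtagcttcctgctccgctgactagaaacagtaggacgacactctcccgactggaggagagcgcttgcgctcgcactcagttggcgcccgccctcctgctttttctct
ESPL1: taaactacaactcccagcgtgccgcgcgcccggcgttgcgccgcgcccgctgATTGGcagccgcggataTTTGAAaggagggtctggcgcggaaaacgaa
BUB1B: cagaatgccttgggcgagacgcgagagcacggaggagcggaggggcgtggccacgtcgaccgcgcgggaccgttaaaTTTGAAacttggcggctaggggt
KIF23: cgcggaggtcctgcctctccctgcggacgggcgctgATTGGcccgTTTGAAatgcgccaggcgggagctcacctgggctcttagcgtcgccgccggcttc
KIF18A: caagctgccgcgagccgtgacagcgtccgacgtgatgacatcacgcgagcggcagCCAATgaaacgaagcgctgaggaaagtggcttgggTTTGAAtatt

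Within the list, shares in genes that rose and in the others are given without a test. A CHR match was in 10 of the 14 windows of genes that rose (71.4%) and in 19 of the 25 windows of the remaining genes (76%). For CCAAT the counts were 9 of 14 (64.3%) and 20 of 25 (80%), and both elements were in 50% and 68%. At least 2 CCAAT matches were in 21.4% of the windows of genes that rose and in 60% of the others, at least 2 CHR matches in 7.14% and 32%, and the E2F-type letters in 0 of 14 and 4 of 25.

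Messages of mitosis were modestly higher in the knockout libraries. Of the 45 genes 40 were above the controls (50.5% of all tested genes were), 16 rose and 0 fell, against 8.21% of all tested genes that rose and 11.5% that fell. At an unadjusted p under 0.05 the count in either direction was 28 of 45, against 33.4% of all tested genes. DESeq2 called 22 of the 45 higher and 1, CDC25B, lower, against 11.7% and 14.2% of all tested genes. The median log2 fold change of the 45 was 0.35, a fold of 1.27, against 0.01 over all tested genes, and the largest rise was 67.8% for ESPL1. All 3 knockout libraries lay above all 3 controls for 29 genes (19.7% of all tested genes did so) and below them for 1, CDC25B (21.5% of all tested genes did so). In bulk RNA a larger share of cells in G2 and mitosis and more message per such cell cannot be told apart. The single libraries were far from even. Relative to the mean of the controls, the median log2 ratio of the 45 genes was 0.05 and 0.09 in control replicates 1 and 2 and -0.12 in control replicate 3. It was 0.56 in knockout replicate 1 and 0.23 in each of replicates 2 and 3. Knockout replicate 1 was the highest knockout library for 43 of the 45 genes (41% of all tested genes), the exceptions being CDC25C and HMMR. Control replicate 3 was the lowest control for 41 of the 45 (38.6% of all tested genes), all but CDC25B, FOXM1, CENPA and NUSAP1. Among the 8877 tested genes in the same range of mean CPM those shares were 57.3% and 40.5%. Of the same 8877 genes 11.4% rose and 15.3% fell in the full fit.

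**Figure D1:**
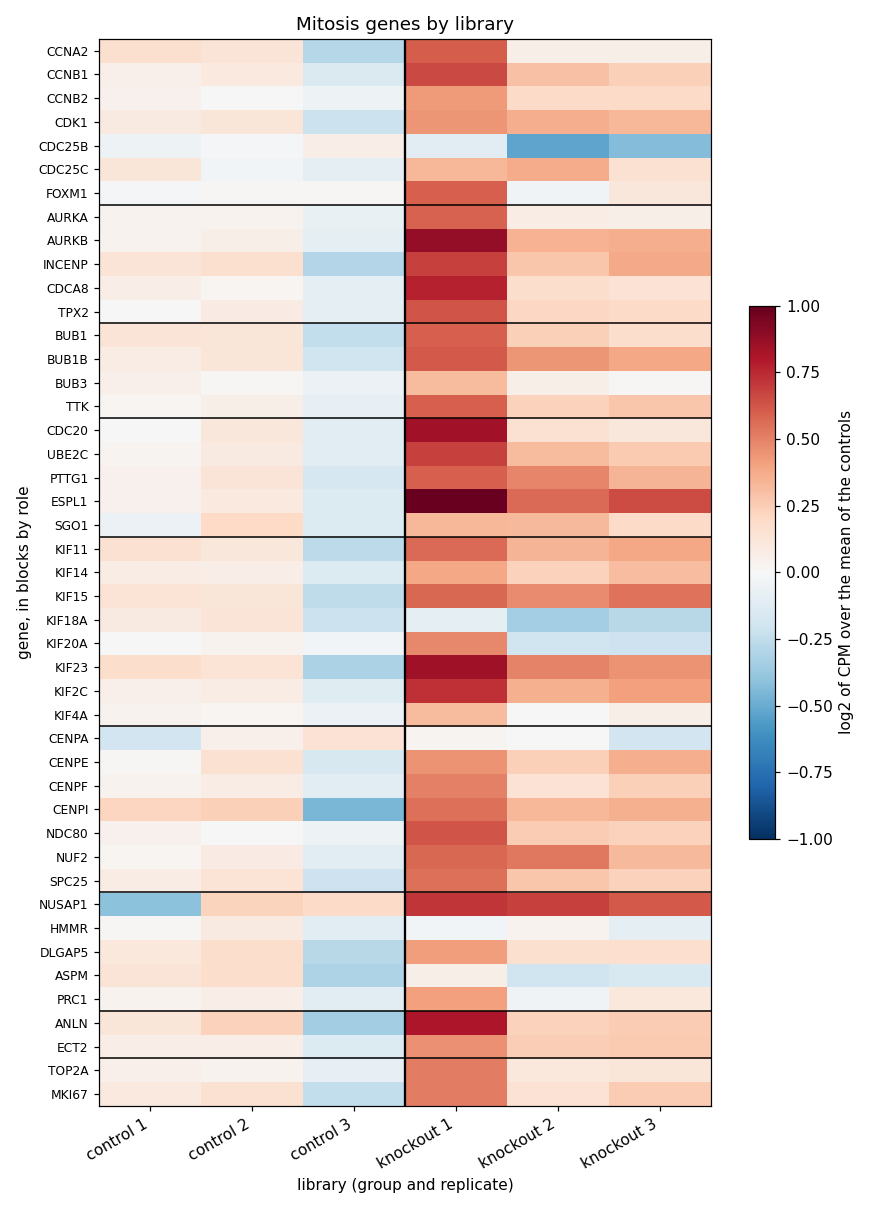
Colour gives the log2 of CPM over the mean of the 3 controls (scale from -1 to 1) for each of the 45 mitosis genes (rows, in blocks by role) in each of the 6 libraries (columns). Knockout replicate 1 is the darkest red column, control replicate 3 is pale blue in nearly every row, and the rows of CDC25B, KIF18A, KIF20A and ASPM are blue in knockout replicates 2 and 3.

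Of the 7 genes of entry into mitosis 1 rose. This and the later counts by role or list are small, and stand beside the 8.21% of all tested genes that rose and the 11.5% that fell. CDK1, the kinase that starts mitosis, was at 127, 129 and 103 CPM in the controls and at 162, 153 and 149.7 CPM in the knockout. All knockout libraries lay above all controls, and CDK1 rose by 29.4% (log2 fold change 0.37, SE 0.10, adjusted p = 0.038), with an adjusted p between 0.046 and 0.094 when 1 library was left out and past the threshold only without knockout replicate 1. Its partner cyclin B1, CCNB1, was at 199, 205 and 174 CPM and at 303, 235 and 226 CPM. The CCNB1 groups did not overlap, yet the difference was not past the threshold (log2 fold change 0.40, SE 0.13, adjusted p = 0.061). The second B-type cyclin CCNB2 and the phosphatase CDC25C also had knockout libraries all above the controls (log2 fold changes 0.27 and 0.29, adjusted p = 0.063 and 0.1). Cyclin A2, CCNA2, which acts from S phase to early mitosis, had groups that overlapped (log2 fold change 0.25, adjusted p = 0.37). CDC25B, a phosphatase that activates CDK1 at the centrosome, was lower without passing the test. It was at 349, 358 and 379 CPM in the controls and at 334, 251 and 267 CPM in the knockout, with all knockout libraries below all controls (log2 fold change -0.35, SE 0.11, adjusted p = 0.069). The difference of CDC25B was past the threshold without knockout replicate 1 (adjusted p = 0.0016).

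FOXM1, the transcription factor of G2 and mitosis genes, was at 119.99, 123 and 123 CPM in the controls and 185, 119 and 132 CPM in the knockout. Knockout replicate 1 stood far above the controls and replicate 3 a little above, while replicate 2 was below all of them (log2 fold change 0.25, 95% interval -0.05 to 0.55, adjusted p = 0.3). Its level in knockout replicate 1 was 0.56 above the other two on the log2 scale, while in control replicate 3 it differed from the other two by 0.02. FOXM1 was not among the 41 of the 45 genes that were lowest in control replicate 3 among the controls. The cause of those low values was not tested. Of the other regulators of this program, MYBL2, named after its values were seen, was at 110.4, 114 and 96.1 CPM in the controls and 182, 129 and 132 CPM in the knockout (adjusted p = 0.056). RBL2, the pocket protein p130 of the DREAM complex, fell from 87.7, 91.2 and 86.5 CPM to 47.7, 64.3 and 64.2 CPM (log2 fold change -0.59, adjusted p = 0.012), with the call lost only without control replicate 2 (adjusted p = 0.055). The NF-Y subunit NFYB fell from 54.3, 52.3 and 53.8 CPM to 41.7, 40.1 and 40.4 CPM (log2 fold change -0.39, adjusted p = 0.0063), a call that held with each library left out.

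In the chromosomal passenger complex and the Aurora kinases 1 of 5 genes rose. AURKB, the kinase of that complex, was at 54.2, 55.3 and 49.7 CPM in the controls and at 97.7, 67.6 and 68.3 CPM in the knockout. Knockout replicate 1 was well above the other two, which still lay above every control (log2 fold change 0.55, SE 0.15, adjusted p = 0.034). The call of AURKB was lost when a control was left out, at an adjusted p of 0.1 (replicate 1), 0.088 (replicate 2) or 0.12 (replicate 3). AURKA, the Aurora kinase of the spindle poles, was at 117, 117 and 109 CPM and at 172, 120.2 and 119 CPM. In AURKA knockout replicates 2 and 3 were barely above the controls, and the change had a 95% interval from -0.02 to 0.55 on the log2 scale (adjusted p = 0.25). INCENP, the scaffold of the passenger complex, its subunit CDCA8 (borealin) and TPX2, the activator of AURKA, also had knockout libraries all above the controls. Their log2 fold changes were 0.44, 0.39 and 0.35, with adjusted p = 0.074, 0.14 and 0.092.

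Among the 4 spindle checkpoint genes 2 rose. BUB1B, which encodes the checkpoint protein BUBR1, was at 79.8, 82.1 and 66 CPM in the controls and at 116, 103 and 98.9 CPM in the knockout (log2 fold change 0.48, adjusted p = 0.018). The BUB1B groups were well separated, and the call was lost only without control replicate 1 (adjusted p = 0.055). TTK, the kinase MPS1 that starts checkpoint signalling, was at 39.3, 40.4 and 36.7 CPM and at 58.8, 45.5 and 47 CPM (adjusted p = 0.048). TTK kept its call only without knockout replicate 1 (adjusted p = 0.034), and in the other 5 fits its adjusted p reached 0.14. BUB3, the adaptor that carries BUB1 and BUBR1, was at 176, 171 and 163 CPM and at 211, 177 and 171 CPM. Knockout replicates 2 and 3 of BUB3 lay within the range of the controls or just above it (log2 fold change 0.13, 95% interval -0.05 to 0.32, adjusted p = 0.38). The kinase BUB1 did not pass (log2 fold change 0.34, adjusted p = 0.14).

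The genes of anaphase held 3 rises among 5, with the largest change of the list. ESPL1 (gene ENSG00000135476, GRCh38 chromosome 12 from 53268299 to 53293638) encodes separase, the protease that cuts cohesin. It was at 70.7, 73.5 and 62.7 CPM in the controls and at 137, 102 and 108 CPM in the knockout, the lowest knockout value lying far above the highest control (log2 fold change 0.75, SE 0.12, adjusted p = 0.0052). The rise of ESPL1 held with each library left out, with an adjusted p up to 0.028. PTTG1 encodes securin, the inhibitor of separase that is destroyed at anaphase. It was at 53.2, 56.5 and 46.1 CPM in the controls and at 78.4, 72.8 and 65.5 CPM in the knockout (log2 fold change 0.48, adjusted p = 0.016). The call was lost without control replicate 1 (adjusted p = 0.06) and without knockout replicate 2 (0.055), and PTTG1 has near-identical copies that can share its reads. UBE2C, the ubiquitin-conjugating enzyme of the anaphase-promoting complex, was at 63.5, 66.4 and 57.7 CPM and at 100.3, 77.8 and 74.7 CPM (log2 fold change 0.43, adjusted p = 0.044). UBE2C was called in 2 of the 6 fits that left out 1 library, those without knockout replicate 1 or 3. CDC20, the activator of that complex, was at 111, 121 and 104 CPM and at 200.4, 124 and 121 CPM, a difference carried by knockout replicate 1 (log2 fold change 0.41, adjusted p = 0.18; 0.08 without that library and control replicate 3). SGO1, the shugoshin that shields centromeric cohesin, was at 18.1, 21.7 and 17.2 CPM and at 23.8, 23.7 and 21.6 CPM. Its groups overlapped through control replicate 2 (log2 fold change 0.28, adjusted p = 0.13).

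Kinesins of the spindle held 5 rises among 8 and also one of the lower values of the list. KIF23, the MKLP1 motor of the central spindle, was at 184, 178 and 130.2 CPM in the controls and at 292, 229 and 222 CPM in the knockout (log2 fold change 0.59, SE 0.16, adjusted p = 0.034). In KIF23 control replicate 3 was low and knockout replicate 1 high, but the other two knockout libraries still lay above the other two controls, and the call held only without knockout replicate 1 (adjusted p = 0.048). KIF2C, the MCAK depolymerase that corrects faulty attachments, was at 76.5, 78.1 and 68 CPM and at 123, 94.7 and 98.5 CPM (log2 fold change 0.51, adjusted p = 0.019), and was called in each fit that left out a knockout library but in none that left out a control, where the adjusted p reached 0.069. KIF15, a plus-end motor that helps keep the spindle bipolar, was at 26.4, 26.2 and 20.2 CPM and at 36, 33.4 and 35.1 CPM (log2 fold change 0.52, adjusted p = 0.019). The 3 knockout values of KIF15 were close together, unlike those of most genes here, and its call was lost only without knockout replicate 3 (adjusted p = 0.059). KIF11, the Eg5 motor that pushes the poles apart, was at 174, 169.6 and 131 CPM and at 232, 199 and 205 CPM (log2 fold change 0.42, adjusted p = 0.047). KIF14, a motor of cytokinesis, was at 63.7, 63.6 and 55.2 CPM and at 79.6, 71.1 and 75.4 CPM (log2 fold change 0.31, adjusted p = 0.041). Both groups were separate in KIF11 and KIF14, but their calls were not stable, KIF11 being called in 0 and KIF14 in 1 of the 6 fits that left out 1 library.

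KIF18A, the motor that dampens chromosome movement at the metaphase plate, was at 61.5, 63.3 and 49.9 CPM in the controls and at 54.6, 45.7 and 47.7 CPM in the knockout. Control replicate 3 lay within the knockout range and the other two controls above it (log2 fold change -0.24, SE 0.11, adjusted p = 0.19). KIF20A, the MKLP2 motor that carries the passenger complex to the midzone, was singled out after its values were seen. It was at 139, 142 and 136 CPM in the controls and at 194, 121 and 121 CPM in the knockout, so that replicate 1 was above every control and replicates 2 and 3 below every control (log2 fold change 0.06, adjusted p = 0.85). Without knockout replicate 1 the log2 fold change of KIF20A was -0.20, past the threshold in the other direction (adjusted p = 0.03). KIF4A, a chromosome-bound motor whose retrocopy can share its reads, did not pass (log2 fold change 0.13, adjusted p = 0.39).

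At the centromere and kinetochore 2 of 7 genes rose. NUF2, a subunit of the NDC80 complex that grips microtubules, was at 31.7, 33.1 and 29.1 CPM in the controls and at 46.6, 45 and 39.2 CPM in the knockout (log2 fold change 0.48, SE 0.10, adjusted p = 0.011). The groups were far apart, and NUF2 and ESPL1 were the only genes of the 45 called in all 6 fits that left out 1 library (adjusted p of NUF2 up to 0.049). CENPE, the kinesin of the kinetochore, was at 55.2, 60.8 and 48.9 CPM and at 74.6, 64.6 and 70.3 CPM (adjusted p = 0.047), and its call was lost in each of those 6 fits, with an adjusted p from 0.052 to 0.14. The partners of NUF2 in its complex, NDC80 and SPC25, and the kinetochore proteins CENPF and CENPI had knockout libraries all above the controls, with log2 fold changes from 0.30 for CENPF to 0.38 for CENPI and adjusted p from 0.078 to 0.18. CENPA, the histone H3 variant that marks the centromere, stood at 18.1, 21.4 and 22.9 CPM in the controls and 21.1, 20.6 and 18.1 CPM in the knockout. The CENPA groups overlapped throughout and the direction changed with the fit (log2 fold change -0.06, adjusted p = 0.77, but a log2 fold change of 0.012 without control replicate 3).

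Proteins of spindle assembly held 1 rise among 5. NUSAP1, which bundles microtubules near chromosomes, was at 62.5, 96.9 and 95.3 CPM in the controls and at 137, 133 and 127 CPM in the knockout (log2 fold change 0.64, SE 0.16, adjusted p = 0.027). Here control replicate 1, not replicate 3, was the low control, and the knockout values were even. The NUSAP1 call was lost without knockout replicate 2 (adjusted p = 0.076) and without knockout replicate 3 (0.062). ASPM, a protein of the spindle poles, was at 220.5, 227 and 163 CPM and at 209, 175 and 181 CPM. The low value of control replicate 3 lay below all knockout libraries of ASPM and the other two controls above them (log2 fold change -0.11, adjusted p = 0.63). HMMR, a spindle protein that also binds hyaluronan, had values between 70.6 and 80.9 CPM in all 6 libraries (log2 fold change -0.03, 95% interval -0.18 to 0.13). PRC1, the bundler of the central spindle, and DLGAP5, a stabilizer of spindle fibres, had overlapping groups (log2 fold changes 0.17 and 0.24).

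Of the cytokinesis pair, ECT2, the exchange factor that activates RhoA at the cleavage furrow, was at 223, 223 and 194 CPM in the controls and at 291, 252 and 254 CPM in the knockout (log2 fold change 0.32, adjusted p = 0.049). Its groups were separate, but the call held only without knockout replicate 1 among the 6 fits that left out 1 library. The furrow scaffold anillin, ANLN, was at 251, 271 and 181 CPM and at 405, 270.5 and 275 CPM. ANLN was spread widely in both groups, which overlapped (log2 fold change 0.44, SE 0.20, adjusted p = 0.17). The proliferation marker MKI67 was at 749, 779 and 591 CPM and at 1001, 777 and 838 CPM. Knockout replicate 2 of MKI67 lay just below control replicate 2 (log2 fold change 0.30, adjusted p = 0.17). Its 95% interval of 0.04 to 0.57, from a normal quantile, excluded 0, but the unadjusted p of the edgeR test was 0.058. TOP2A, the topoisomerase that untangles sister chromatids, was at 889, 878 and 812 CPM and at 1228, 922 and 933 CPM. The TOP2A groups did not overlap, yet knockout replicates 2 and 3 were close to the controls (log2 fold change 0.26, adjusted p = 0.2).

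**Figure D2:**
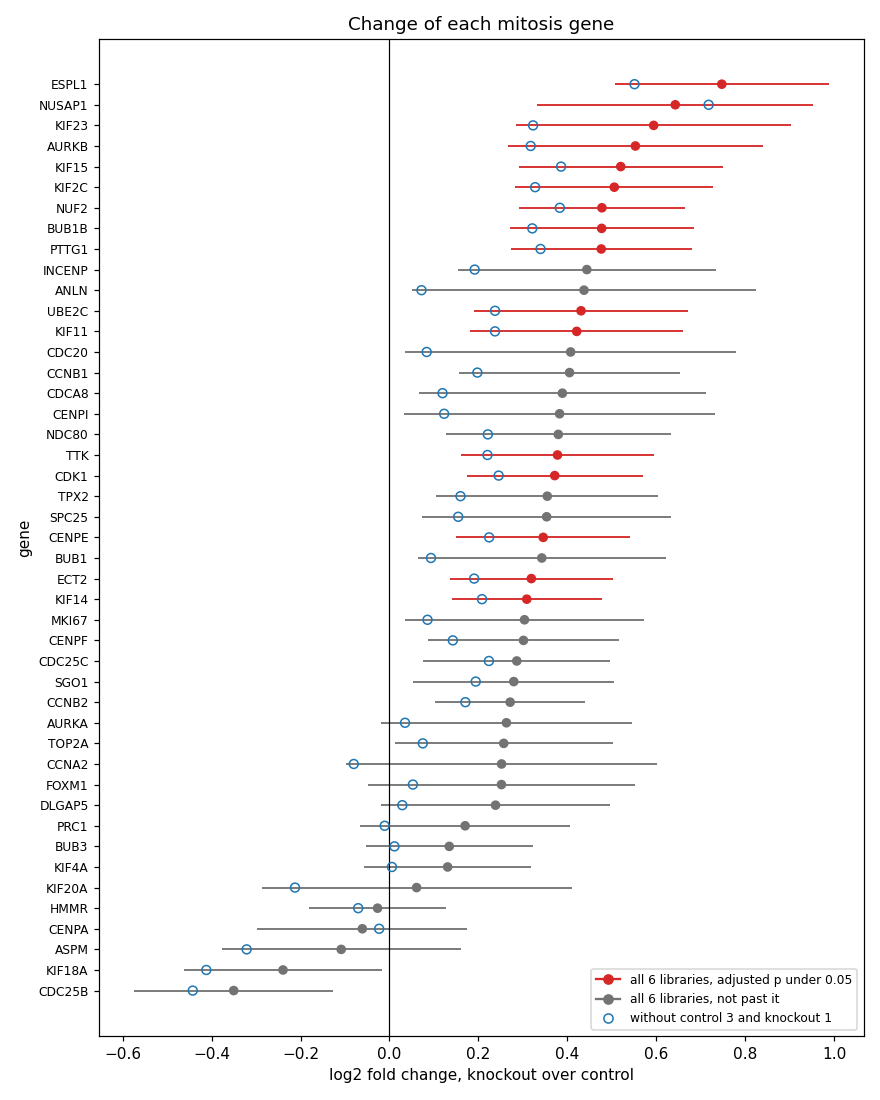
Points give the log2 fold change of knockout over control (x axis) for each of the 45 genes (y axis, ordered by value) with all 6 libraries, lines its 95% interval from the standard error, red an adjusted p under 0.05, and open blue circles the value without control replicate 3 and knockout replicate 1. The intervals use a normal quantile and can exclude 0 where the unadjusted p is above 0.05, as for MKI67. ESPL1 is highest at 0.75 and CDC25B lowest at -0.35. Nearly all open circles lie to the left of their points, and NUSAP1 and CENPA to the right.

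How many genes were called varied widely when 1 library was left out. Of the 16 rises, 14 were called without knockout replicate 1 (all but KIF11 and CENPE), where 10.8% of all tested genes were called higher, but 4 without control replicate 1 (ESPL1, KIF15, NUF2 and NUSAP1), where 3.69% were. The count was 6 when control replicate 2 or 3 was omitted, against 3.96% and 5.19% of all tested genes. It was 6 when knockout replicate 2 was omitted (4.24% of all tested genes) and 7 when knockout replicate 3 was (4.57%). The median log2 fold change of the 45 genes stayed between 0.24 and 0.40 in these fits. No gene of the list was past a minimum fold of 1.5, a test that asks whether the change exceeds that fold (0 of 45, against 1.29% of all tested genes that were higher and 3.33% that were lower).

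A fit without both libraries that stood apart, control replicate 3 and knockout replicate 1, gave smaller values. That much follows from the choice, since these libraries were the lowest control and the highest knockout for most of the 45 genes. Spread within groups is also smaller in this fit, and calls over all tested genes went from 3963 to 6657. The median log2 fold change of the 45 genes was 0.16 in place of 0.35, and 37 of the 45 remained above the controls. In this fit of 2 libraries against 2, 21 genes rose and 4 fell, against 15% of all tested genes that rose and 17.2% that fell. All 16 rises of the full fit were among the 21. NUSAP1 had the largest rise (log2 fold change 0.72, adjusted p = 0.022), then ESPL1 (0.55, adjusted p = 0.00032) and KIF15 (0.39, adjusted p = 0.0031). The NUSAP1 value there rests on control replicates that differ, at 62.5 and 96.9 CPM. The 4 falls were CDC25B (-0.44, adjusted p = 0.00033), KIF18A (-0.41, adjusted p = 0.0012), ASPM (-0.32, adjusted p = 0.00096) and KIF20A (-0.21, adjusted p = 0.0064). CCNB1, CCNB2, TPX2, INCENP and CENPF rose in this fit and not in the full one. Among the mitosis genes named whatever their values, CDK1 (log2 fold change 0.25, adjusted p = 0.0033), CCNB1 (0.20, adjusted p = 0.0084) and AURKB (0.32, adjusted p = 0.0026) rose. The others did not pass, with log2 fold changes of 0.09 for MKI67 (adjusted p = 0.18) and 0.07 for TOP2A (adjusted p = 0.077). Values were 0.04 for AURKA (adjusted p = 0.55), 0.05 for FOXM1 (adjusted p = 0.55) and 0.01 for BUB3 (adjusted p = 0.86).

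Knockout replicate 1 was not raised evenly over the list. Its log2 ratio to the other two knockout libraries was 0.71 for CDC20, 0.68 for KIF20A, 0.61 for CDCA8, 0.57 for ANLN and 0.56 for FOXM1, but 0.00 for HMMR, 0.07 for NUSAP1, 0.07 for CDC25C and 0.07 for KIF15. By role its median was highest for the Aurora and passenger genes (0.52) and lowest for the centromere and kinetochore (0.20). Control replicate 3 was lowest against the others for CENPI, with log2 ratios to the other two controls of -0.68 for CENPI, -0.53 for ANLN, -0.48 for KIF23 and -0.46 for ASPM. ANLN was thus among the most displaced genes in both libraries.

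Other genes of mitosis, in 5 lists with 126 genes, all tested, are set beside the list. Of these 27 rose (21.4%, against 8.21% of all tested genes) and 4 fell (3.17%, against 11.5%), and the median log2 fold change was 0.25, ranging from 0.16 for the checkpoint and anaphase list to 0.35 for the kinetochore list. Without control replicate 3 and knockout replicate 1 there were 41 rises and 12 falls among the 126, against 15% and 17.2% of all tested genes. The median of the 126 genes was then 0.11. By library, their median log2 ratio reached 0.42 in knockout replicate 1 but only 0.18 and 0.16 in the other two. Among 29 other centromere and kinetochore genes 8 rose and 1, MIS12, fell. HJURP, the chaperone that places CENPA at centromeres, went from 121, 130.1 and 93.7 CPM to 298, 217 and 229.6 CPM (log2 fold change 1.11, SE 0.16, adjusted p = 0.0029), a larger change than that of any of the 45 genes. OIP5, a part of the Mis18 complex that prepares that step, rose from 8.23 ± 0.414 to 14.5 ± 0.292 CPM (mean ± SD, n = 3, adjusted p = 0.0025), and CENPW from 11 ± 1.51 to 16.6 ± 1.19 CPM (adjusted p = 0.021). CENPA itself did not pass the test. The CENPW call was lost without control replicate 1 (adjusted p = 0.05), control replicate 2 (0.052) or knockout replicate 2 (0.075).

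Of 21 other genes of the checkpoint and the anaphase-promoting complex 5 rose and 1, ANAPC16, fell. ANAPC11, its catalytic RING subunit, rose from 49.2 ± 0.534 to 87 ± 9.42 CPM (log2 fold change 0.82, adjusted p = 0.00088). UBE2S, which extends ubiquitin chains after UBE2C, rose from 115 ± 7.36 to 189 ± 14.4 CPM (adjusted p = 0.0014), and TRIP13, the ATPase that takes the checkpoint complex apart, from 60.6 ± 9.23 to 109 ± 16.8 CPM (adjusted p = 0.0062). ANAPC11, UBE2S and TRIP13 were called with each library left out, as were HJURP and OIP5. MAD2L1 and FBXO5, the other rises, are named to complete the count, after their values were seen. Of 35 other genes of the spindle, centrosome and cytokinesis 7 rose and 0 fell, with NEDD1, PLK4 and KIF18B at log2 fold changes of 0.44, 0.60 and 0.67 (adjusted p = 0.0057, 0.016 and 0.019). Condensin and cohesin genes held 4 rises among 18, namely CDCA5 (sororin), SMC3, NCAPH and, outside the naming rule, SMC1A, with log2 fold changes from 0.35 to 0.59 and adjusted p from 0.025 to 0.048. Among 23 regulators of entry, exit and transcription 3 rose and 2 fell, and the CDK1 phosphatase CDKN3 rose from 44.2 ± 2 to 65.4 ± 5.71 CPM (adjusted p = 0.0039). The other rises, CDC25A and CKS1B, are likewise outside the naming rule, and the falls were RBL2 and NFYB.

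Genes of G1 to S and of DNA replication, were read for comparison. Of 41 genes 6 rose (14.6%, against 8.21% of all tested genes) and 0 fell (against 11.5%). An unadjusted p under 0.05 in either direction was found for 22, against 33.4% of all tested genes, and the median log2 fold change was 0.43. Their median log2 ratio to the controls was -0.43 in control replicate 3, where that of the mitosis genes was -0.12, and 0.60, 0.38 and 0.37 in the knockout libraries. All 41 were lowest in control replicate 3 among the controls, against 38.6% of all tested genes. Without control replicate 3 and knockout replicate 1 21 rose and 5 fell, against 15% and 17.2% of all tested genes, with a median of 0.16. The 45 mitosis genes had 21 rises, 4 falls and a median of 0.16 in that fit. E2F8 was the call with the smallest adjusted p, from 15.1 ± 4.3 to 28.1 ± 4.03 CPM (adjusted p = 0.025), and its call was lost without knockout replicate 2 (0.052) or 3 (0.057). RFC4 and CHAF1B came next (adjusted p = 0.03 and 0.045). A list of 16 reference genes had a median log2 fold change of 0.01, with 0 rises and 2 falls (12.5%, against 11.5% of all tested genes), B2M and POLR2A. Without control replicate 3 and knockout replicate 1 the same list had 1 rise and 7 falls, against 15% and 17.2% of all tested genes, with a median of -0.08. Knockout replicate 1 had a median log2 ratio of 0.11 over this list and the other two had -0.08 and -0.11, so that library was also the higher one there, by a smaller amount. The part of this in the mitosis values was not tested.

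**Figure D3:**
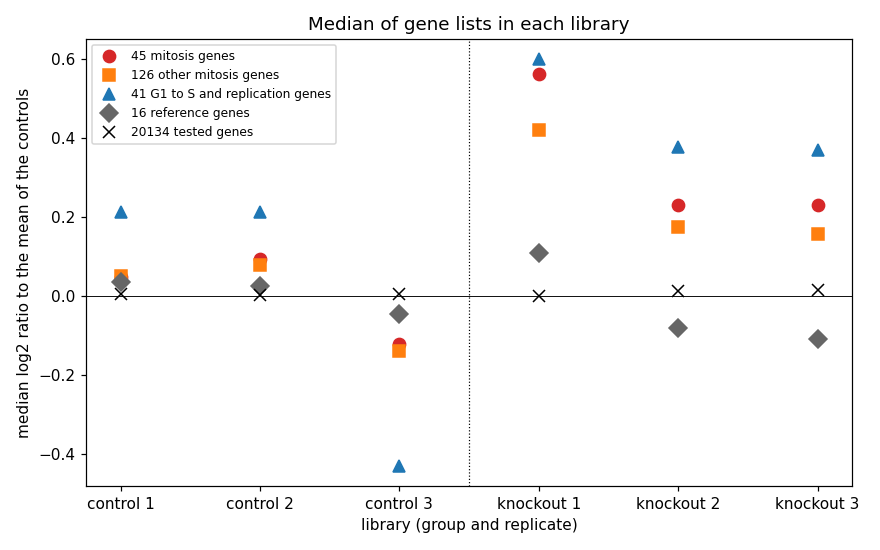
Median log2 ratio to the mean of the controls (y axis) of 5 sets of genes in each of the 6 libraries (x axis), 1 symbol per set. Mitosis genes reach 0.56 in knockout replicate 1 and 0.23 in replicates 2 and 3, G1 to S genes drop to -0.43 in control replicate 3, and the median of all tested genes lies at 0 to 0.02 in every library.

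Levels between genes were compared per length, in FPKM. TOP2A was the most abundant of the 45 messages in the controls at 127 ± 6.64 FPKM (mean ± SD, n = 3), followed by CDC25B at 87.5 ± 3.38, CCNB1 at 74.5 ± 6.58 and TPX2 at 71.3 ± 4.56 FPKM. The lowest were KIF15 at 4.34 ± 0.643 and NDC80 at 4.35 ± 0.16 FPKM. Of the 44 pairs of neighbours in this order 39 had control values that overlapped, so the order is firm only where a step separates TOP2A from CDC25B, CDC25B from CCNB1, TPX2 from CDC20, UBE2C from AURKA, and CCNB2 from CDK1. In the knockout TOP2A was also the highest at 154 ± 17.9 FPKM, CCNB1 was at 100.2 ± 11.5 FPKM and CDC25B at 69.8 ± 7.16 FPKM. ESPL1, the gene with the largest change, was one of the scarce messages, at 7.31 ± 0.619 FPKM in the controls and 12.5 ± 1.35 FPKM in the knockout.

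The 45 genes lie on 16 chromosomes. For each, up to 50 neighbouring tested genes on the same chromosome were read, equally many on each side in order of position. Near a chromosome end there were fewer (45 for FOXM1 and 40 for NDC80). The median log2 fold change of the neighbours ranged from -0.18 around ESPL1 to 0.16 around CCNB2, with a median of 0.01 over the 45 genes. ESPL1 thus had the lowest neighbourhood of the list and the largest rise. Chromosome 15 held 5 of the genes, of which BUB1B, KIF23 and NUSAP1 rose, and had a median log2 fold change of 0.14 over all its tested genes.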

How the data were processed

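RNA sequencing of total RNA covered 6 libraries, which their titles place in groups. Trimming used Cutadapt, alignment HISAT2 and quantification StringTie, per the labels' protocols. Versions in the submitters' processing notes are 2.0.4 for HISAT2 and 1.3.4d for StringTie, with edgeR and the build GRCh38 also listed. For the annotation release and strand setting, neither given in the sources used, nothing was assumed, and antisense and overlapping genes cannot be told apart. The table deposited by the authors holds raw read counts per gene and FPKM, scaled by the authors for gene length and library size. Small counts (4 to 10) were even in 69.9% to 71% of cases, so both mates of a pair appear to be counted and precision is lower than the counts imply.

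Counts were filtered (filterByExpr, minimum count 10, minimum total 15), TMM-normalized and tested with edgeR 4.0.16 in R 4.3.3 (quasi-likelihood, genotype as the only term, all 6 libraries). The standard error is the fold change over the root of F, and 95% intervals follow from it. Library ratios used log2 of CPM plus 0.01. Fits were checked on simulated counts. These were drawn independently for each gene and library, so the check did not cover a library that stands apart, as in these data.

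Members and lists were chosen with earlier results of these data known. Values in every library are given for called members, the highest and lowest change of each role group, FOXM1, CCNB1, CDK1, AURKA, AURKB, MKI67, TOP2A, BUB3 and IGF2BP3. From each other list up to 3 called genes with the smallest adjusted p are named. Promoter sequences are from RefSeq (GRCh38.p14). Other settings tried were DESeq2 1.42.0, its size factors in edgeR, limma-voom after quantile normalization (limma 3.58.1), and limma on FPKM in log2 with a pseudocount of 1 and a mean of at least 1. Further ones were a test against a minimum fold of 1.5, all genes unfiltered, genes with mean counts from 100 up, a replicate block, and fits without 1 or 2 libraries.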

Additional observations from a re-analysis of the deposited data

How the results depend on the processing

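With all 6 libraries 16 mitosis genes rose, 0 fell, and 3963 of all genes were called. With no filter on low counts 6 rose, where 3.1% of all tested genes were called higher. Against a minimum fold of 1.5 the count was 0, where 1.29% were (930 genes called in all). When 1 library was left out 4 to 16 rose, where 3.69% to 10.8% of all tested genes did. In those fits 2183 to 5338 genes were called in all, and 0 to 2 mitosis genes fell. CDC25B was the 1 gene that fell with a mean count of at least 100, with quantile normalization, with DESeq2 and with limma on FPKM. Without control replicate 3 and knockout replicate 1 together 6657 genes were called in all, 21 mitosis genes rose and 4 fell. CENPA, at -0.06 in the full fit, had a log2 fold change of 0.000206 after quantile normalization and values from -0.15 to 0.012 when 1 library was left out, above 0 without control replicate 3 (0.012) and without knockout replicate 3 (0.0059). The cause of these differences was not tested. The median log2 fold change of the 45 genes, 0.35 in the full fit, lay between 0.24 and 0.40 when 1 library was left out and was 0.16 without both libraries. With the replicate number as a block 12 rises remained, where 5.69% of all tested genes were called higher, and 3001 genes were called in all. The 16 rises were all called with quantile normalization, DESeq2, DESeq2-type size factors, a mean count of at least 100 and limma on FPKM. Over the 28 mitosis genes the naming rule selects and IGF2BP3, 328 results under an alternative kept direction and side of the threshold, 88 lost a call, 16 gained one and 3 changed direction. Over all 45 genes 5 had the other sign in at least 1 alternative, in 11 results of 675. CCNA2 (-0.08) and PRC1 (-0.01) did so without both libraries, CENPA as given and HMMR in 4 alternatives (up to 0.03). KIF20A did so past the threshold without knockout replicate 1 (-0.20) and without both libraries (-0.21). Each mitosis gene had at least 760 counts in each library, and no setting varied the depth. The labels do not say that replicate numbers pair the libraries. Deviations of same-numbered libraries correlated at 0.0072, -0.12 and -0.058, and no control replicate correlated best with its own number. With 3 libraries per group these values cannot decide whether the libraries were paired.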
